A study of Mus musculus with 6 samples.

Results

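The enzymes of the methionine cycle and of betaine metabolism were examined in cultured primary hepatocytes with and without the succinate receptor gene *Sucnr1*. The 9 genes were *Bhmt*, *Bhmt2*, *Mat1a*, *Gnmt*, *Ahcy*, *Cbs*, *Cth*, *Dmgdh* and *Sardh*, taken by name and read from the deposited table of 25184 genes in all 6 libraries. All 9 passed the filter on low counts (a mean normalized count above 5), which kept 15105 genes. Controls (*Sucnr1* fl/fl mice, 3 samples) carried floxed *Sucnr1* alleles, with loxP sites around exon 2, and no Cre. KO samples (Hep-*Sucnr1* KO mice, 3 samples) carried the same alleles and 1 copy of *Alb-Cre*, a Cre driven by the albumin promoter that acts in hepatocytes. The Cre transgene and the loss of *Sucnr1* therefore cannot be told apart in this design. The *Alb-Cre* parents had a C57BL6J background, and the mice ate chow. The age and sex of the mice behind these cultures are not given in the sources used here. Hepatocytes from the left lateral liver lobe were plated on collagen and kept overnight before RNA extraction, on extraction day 1 for 1 library of each genotype and on day 2 for 2 libraries of each. Samples keep the numbers of their labels, control 1, 2 and 3 and KO 3, 4 and 5, with control 1 and KO 3 from day 1.

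Methionine is the source of S-adenosylmethionine, the methyl donor of most methylation reactions, and the liver is the main site of its turnover. MAT1A, the liver form of methionine adenosyltransferase, makes S-adenosylmethionine, GNMT spends it by methylating glycine to sarcosine, and AHCY splits the S-adenosylhomocysteine that remains into homocysteine and adenosine. Homocysteine then meets a branch: BHMT returns it to methionine with a methyl group of betaine, while CBS and CTH lead it through cystathionine to cysteine. BHMT2, a close relative of BHMT, takes its methyl group from S-methylmethionine. The dimethylglycine that BHMT leaves is oxidized in mitochondria by DMGDH to sarcosine, and SARDH oxidizes sarcosine to glycine.

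The libraries held between 30504248 and 38770694 counts on genes. The 9 enzymes took 0.494 to 0.629% of the counts of a library, and the lowest single count was 2118, for *Bhmt2*. The labels number the samples separately without tying each to a mouse of its own, and p values therefore measure the spread between these samples, which may be technical. The deleted gene *Sucnr1* was at 6.71, 3.55 and 3.40 CPM (counts scaled to a common library size with TMM factors) in controls 1, 2 and 3 and at 2.66, 0.827 and 0.152 CPM in KO 3, 4 and 5. Every KO library was below every control, in the direction of the labels, and KO 3 kept the most transcript. The summed level of 11 detected hepatocyte genes, such as *Alb* and *Apoa1*, lay between 67500 and 102500 CPM in the 6 libraries. Markers of other liver cells were low, with sums of 8.32 to 138.5 CPM for 10 Kupffer cell genes, 40.5 to 109.8 CPM for 9 sinusoidal endothelial genes and 4.78 to 25.2 CPM for 9 stellate cell genes. For each of these 3 lists the ranges of the genotypes overlapped. Log2 fold changes were below 0 for all 10 Kupffer cell genes (median −0.40), for 8 of 9 endothelial genes (median −0.23) and for 4 of the 6 stellate cell genes tested (median −0.38). In controls 1, 2 and 3 the Kupffer cell sums were 42.1, 37.9 and 138.5 CPM. In KO 3, 4 and 5 they were 8.32, 120.7 and 85.25 CPM. On day 1 every Kupffer cell and endothelial gene was lower in KO. On day 2 every Kupffer cell gene was higher in KO, as were most endothelial genes. All KO libraries were lower for *Pecam1* of the endothelial list and *Reln* of the stellate list, both named after their values were seen. Over all genes tested this held for 4.04%. The part of these cells in the results was not tested. Bulk RNA cannot separate fewer expressing cells from less RNA per cell.

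*Bhmt*, *Bhmt2* and *Dmgdh* lie side by side on chromosome 13 of GRCm38. *Bhmt* (ENSMUSG00000074768) spans 93616675 to 93637961 and *Bhmt2* (ENSMUSG00000042118) spans 93655720 to 93674302, both on the minus strand. *Dmgdh* (ENSMUSG00000042102) spans 93674433 to 93752833 on the plus strand. *Bhmt2* and *Dmgdh* are thus divergent neighbours, with RefSeq start sites 134 bases apart. The other enzymes are spread over 4 chromosomes: *Mat1a* (chromosome 14, 41105035 to 41124412), *Gnmt* (chromosome 17, 46725664 to 46729168), *Cbs* (chromosome 17, 31608894 to 31637238), *Ahcy* (chromosome 2, 155059310 to 155074497), *Sardh* (chromosome 2, 27188393 to 27248337) and *Cth* (chromosome 3, 157894248 to 157925077). RefSeq windows of 300 bases around the start site (GRCm38.p6) were at hand for 7 of the 9 genes. The sequence between the *Bhmt2* and *Dmgdh* transcripts and a site just before the *Bhmt* start are shown because this stretch of the genome holds both of the genes whose genotypes separated and a neighbour whose genotypes did not.
Bhmt, chr13:93637789-93637818, minus strand, 30 bases: tgctattggaCAAAGGTCAgtgtgcagacg
Bhmt2 to Dmgdh, chr13:93674303-93674432, minus strand, 130 bases: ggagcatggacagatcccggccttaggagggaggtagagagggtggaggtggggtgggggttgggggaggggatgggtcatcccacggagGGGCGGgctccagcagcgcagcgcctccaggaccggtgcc
Capitals mark CAAAGGTCA in the first sequence, letters found in sites of liver nuclear receptors such as HNF4A, and GGGCGG, the GC box, in the second. Both strands were searched, and the motifs were chosen with the sequences in view. CAAAGGTCA was found 1 time in the 300-base window of *Bhmt*, beginning 50 bases before the start, in 0 of the other 6 enzyme windows and in 0.478% of 32851 RefSeq windows. Its inner letters GGTCA, shared by the sites of many nuclear receptors, were found 6 times in the *Bhmt* window, the copy inside CAAAGGTCA included. At least 6 copies were present in 7 of all windows (0.0213%). GGGCGG was present in 35.7% of windows and 2 times each in those of *Bhmt2*, *Dmgdh* and *Cbs*, where the *Bhmt2* and *Dmgdh* windows overlap. The *Bhmt2* window held 26 CpG and the *Bhmt* window 8, against a median of 7. These matches describe letters only. GENCODE places the outermost *Bhmt* start further upstream than RefSeq, so that the *Bhmt* site lies inside the first exon of that longer transcript.

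The first question was whether the hepatocyte deletion of *Sucnr1* went with other transcript levels of these enzymes. *Bhmt* was the enzyme with the largest difference. It was at 1792, 1058 and 1480 CPM in controls 1, 2 and 3 and at 2197, 2302 and 1971 CPM in KO 3, 4 and 5. Every KO library was above every control library, although the highest control, control 1, was nearer to the lowest KO library than to control 2. The means were 1443 ± 368.5 and 2157 ± 169 CPM (SD, n = 3 each), 49.4% higher in KO. Its log2 fold change was 0.60 (standard error 0.20, 95% interval 0.13 to 1.07), which corresponds to 1.52-fold. Its unadjusted p was 0.01995 and its adjusted p 0.998 in edgeR's quasi-likelihood test over all genes, so the difference did not pass the threshold of 0.05. The two-sided exact permutation test on CPM gave p = 0.1, the smallest p that 3 libraries against 3 allow.

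*Bhmt2* was at 75.8, 63.7 and 75.1 CPM in the 3 controls and at 82.4, 87.9 and 83.7 CPM in the 3 KO libraries, in the same replicate order. The groups did not overlap, with control 2 the lowest as for *Bhmt*. The means were 71.5 ± 6.81 and 84.7 ± 2.88 CPM (SD, n = 3 each, two-sided exact permutation p = 0.1). The log2 fold change of *Bhmt2* was 0.24 (standard error 0.12, 95% interval −0.03 to 0.52, edgeR adjusted p = 0.998), and 0.16 without control 2. Groups with all KO libraries higher were thus seen for 2 of the 9 enzymes, against 6.54% of all genes tested, and groups with all KO libraries lower for 0 of 9, against 4.04%. In the plot of the 9 enzymes by library, *Bhmt* and *Bhmt2* are the panels in which the genotypes separate.

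**Figure D1:**
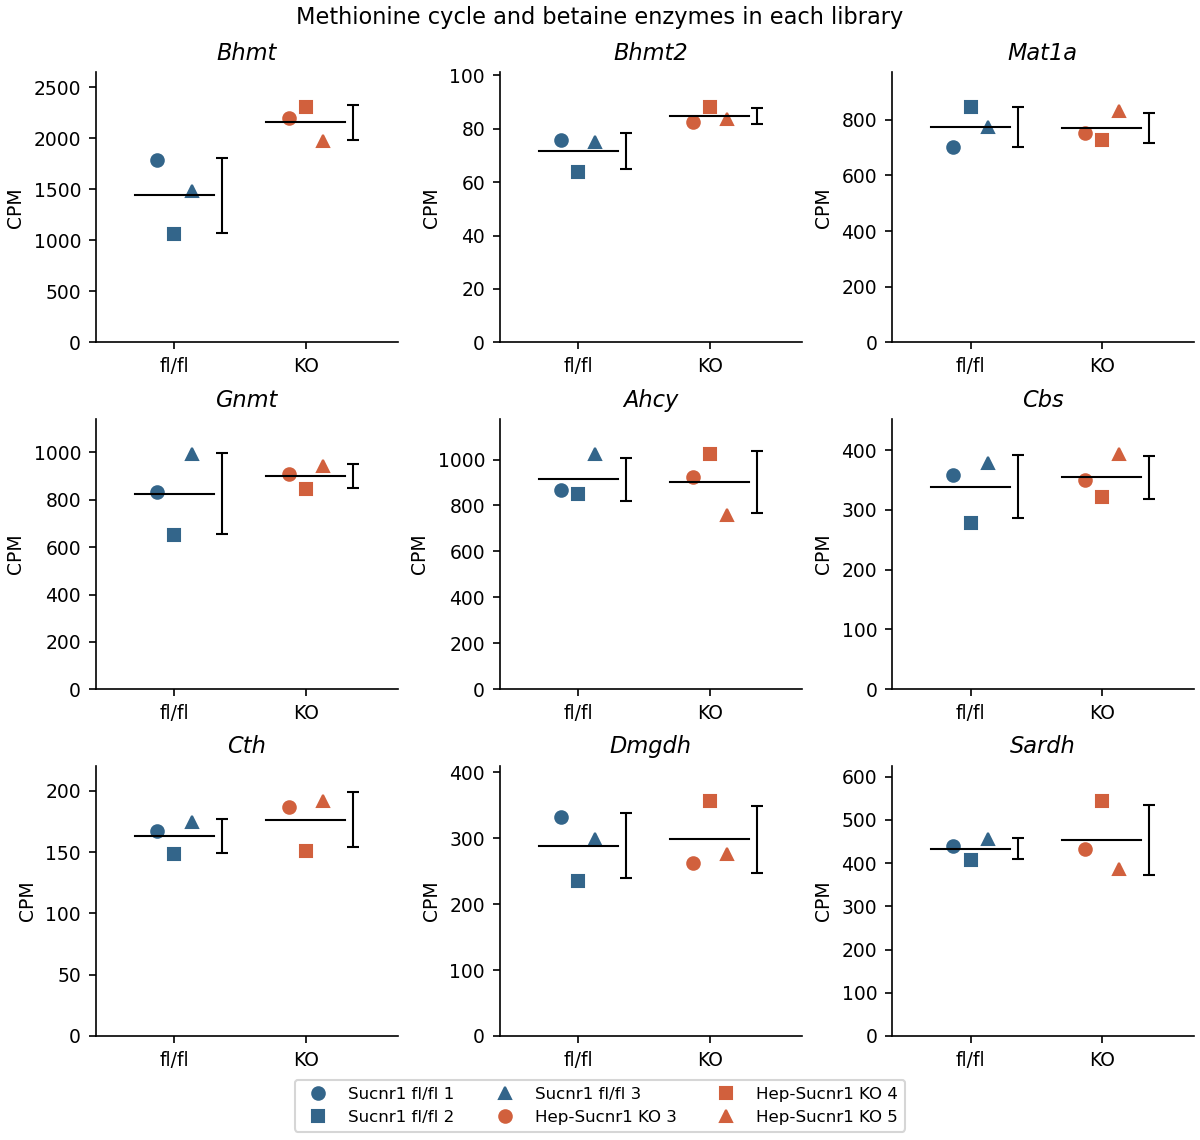
Level of each enzyme in CPM (linear axis from 0) in the 3 *Sucnr1* fl/fl (blue) and 3 Hep-*Sucnr1* KO (orange) libraries, with circles for the libraries of extraction day 1. Horizontal lines are means and error bars SD (n = 3). *Bhmt* and *Bhmt2* do not overlap between genotypes, while the other 7 enzymes do.

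Reads from gene copies could enter these values, because the methods do not state how the counting treated reads with more than 1 possible origin. Transcripts of *Gm5096* and *Bhmt-ps1* matched *Bhmt* at 99.4% identity over 1869 bases and 98.9% over 1224 bases. *Gm5096* held 11.8 to 12.4% as many counts as *Bhmt* in the 6 libraries and *Bhmt-ps1* 2.28 to 2.57%, a nearly fixed share in each library. Their own log2 fold changes were 0.62 and 0.68 (standard errors 0.18 and 0.14, edgeR adjusted p = 0.998 each), close to that of *Bhmt*, and they are no independent evidence. With the counts of both copies added to *Bhmt*, an alternative chosen after seeing the data, its log2 fold change was again 0.60. *Ahcy* likewise had 2 counted copies, *Gm4737* (99.7% identity over 2083 bases) with 32.7 to 35.7% as many counts and *Gm9826* (99.2% over 1299 bases) with 1.24 to 1.43%.

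The steps that make and spend S-adenosylmethionine showed no separation of the genotypes. *Mat1a* was at 703, 844 and 775 CPM in controls 1, 2 and 3 and at 754, 727 and 831 CPM in KO 3, 4 and 5. All KO libraries lay inside the control range, with means of 774 ± 70.5 and 771 ± 53.7 CPM (SD, n = 3 each). For *Mat1a* the log2 fold change was −0.004 with a 95% interval of −0.33 to 0.32, so that the data leave room for a level between 0.797 and 1.25 times that of the controls. *Gnmt* was at 832, 651 and 992 CPM in the controls and at 911, 848 and 945 CPM in KO, again inside the control range. Its means were 825 ± 171 and 901 ± 49.3 CPM (SD, n = 3 each), and its log2 fold change was 0.13 (95% interval −0.32 to 0.57). *Ahcy* was at 869, 848.5 and 1023 CPM in the controls and at 923, 1023 and 757 CPM in KO, with KO 5 the lowest of the 6 libraries. Its log2 fold change was −0.02 (95% interval −0.43 to 0.39).

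The transsulfuration enzymes overlapped as well. *Cbs* ranged from 279 to 379 CPM in controls and from 321 to 393 CPM in KO libraries, and *Cth* from 148 to 175 and from 151 to 192 CPM. The log2 fold change of *Cbs* was 0.07 (95% interval −0.33 to 0.46) and that of *Cth* 0.11 (95% interval −0.22 to 0.44), the latter between 0.012 without KO 5 and 0.209 without KO 4. In each genotype 1 library of day 2 was lowest for both genes, control 2 and KO 4.

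The mitochondrial dehydrogenases that follow BHMT overlapped between genotypes. *Dmgdh* was at 332, 235 and 299 CPM in controls 1, 2 and 3 and at 262, 357 and 277 CPM in KO 3, 4 and 5. The KO libraries held the highest of the 6 values, and the lowest was that of control 2. Its log2 fold change was 0.05 (95% interval −0.40 to 0.50). *Sardh* ranged from 407 to 455 CPM in controls and from 386 to 544 CPM in KO, with the highest and the lowest value both in KO, and its log2 fold change was 0.07 (95% interval −0.33 to 0.46). Over the 9 enzymes, 7 log2 fold changes were above 0, where 50.5% of all tested genes were above 0, and the median was 0.07 against 0.003 over all tested genes. When a term for the index series of the libraries was added, the count above 0 was 3 and the median −0.02. Without control 2 the count was 5 and the median 0.007, and without control 3 they were 8 and 0.186. The series was set here by splitting the libraries on the number in their names, and the labels name no such series. The paper describes a single index set and a single pool for all libraries. The split put controls 1 and 2 in 1 series and the other 4 libraries in another, so it overlaps with genotype. Control 3 is the only control in the series of the KO libraries. With this term the genotype difference therefore rests on that control alone.

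By edgeR's quasi-likelihood test 0 of the 9 enzymes had an adjusted p under 0.05, as 0.0% of all genes tested did. An unadjusted p under 0.05 was reached by 1 enzyme, *Bhmt*, and by 3.72% of all genes, or 1.91% when only genes higher in KO are counted. DESeq2's Wald test with the same covariate also gave 0 enzymes with an adjusted p under 0.05, against 0.0463% of genes, and for *Bhmt* an unadjusted p of 0.00421 with an adjusted p of 0.702.

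**Figure D2:**
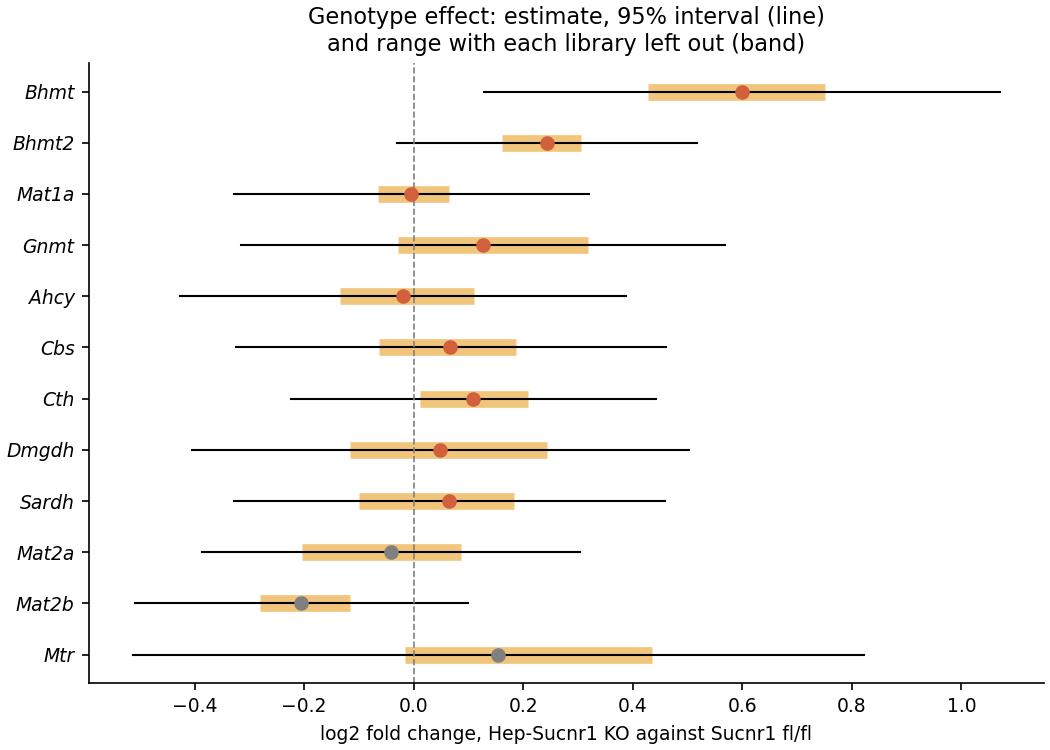
Log2 fold change between KO and control samples (horizontal axis, above 0 higher in KO) for the 9 enzymes (orange points) and 3 related genes (grey points). Black lines are 95% intervals of edgeR's fit and bands the range over the 6 fits that each left out 1 library. The interval of *Bhmt* lies above 0, and those of the other genes include 0.

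Within extraction days, *Bhmt* was higher in KO by 0.29 on the log2 scale on day 1 (a single pair of libraries, with no replicate check) and by 0.77 on day 2 (2 libraries a genotype). For *Bhmt2* these differences were 0.12 and 0.31. *Dmgdh* differed by −0.34 on day 1 and 0.24 on day 2. The interaction of genotype and day was not past the threshold for these genes (edgeR adjusted p = 0.9997 for each of the 3). It was past an adjusted p of 0.05 for 0 of the 9 enzymes and past an unadjusted p of 0.05 for 0 (0.0% and 3.69% of all genes). For day 2 against day 1 itself, 0 enzymes passed an adjusted p of 0.05 in edgeR or in DESeq2, and 0 an unadjusted p of 0.05 in edgeR (0.0% and 7.49% of all genes for edgeR). The largest day difference was again that of *Bhmt*, −0.27 on the log2 scale (standard error 0.21, edgeR adjusted p = 0.906).

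Levels of different enzymes were compared per kilobase of exon. In *Sucnr1* fl/fl hepatocytes the order was *Gnmt* (684 ± 142 CPM per kilobase, SD, n = 3), *Ahcy* (326 ± 34.1), *Bhmt* (251 ± 64.0), *Mat1a* (223 ± 20.3), *Dmgdh* (84.6 ± 14.5), *Sardh* (79.9 ± 4.59), *Cth* (58.6 ± 4.93), *Cbs* (45.3 ± 7.04) and *Bhmt2* (28.99 ± 2.76). All 9 enzymes were among the 1180 highest of the 15105 genes tested on this scale, and *Gnmt*, the highest, ranked 90. The neighbours *Ahcy* and *Bhmt*, *Bhmt* and *Mat1a*, and *Dmgdh* and *Sardh* overlapped between control libraries, so their order is not fixed by these data. *Bhmt* was below *Ahcy* in 2 of 3 controls and above it in 3 of 3 KO libraries, where it averaged 374.5 ± 29.4 against 321 ± 47.9 CPM per kilobase (SD, n = 3 each). Gene copies were left out here. *Gm4737* held 32.7 to 35.7% as many counts as *Ahcy*, against 11.8 to 12.4% for *Gm5096* and *Bhmt*. The order of these 2 enzymes in KO libraries therefore depends on how shared reads were assigned. The place of *Bhmt* depends on the length used. With the longest transcript of *Bhmt* in place of all exons it was at 364 CPM per kilobase in controls. The longest *Ahcy* transcript was likewise shorter than all its exons (2543 against 2805 bases). The 364 is therefore not to be set against the *Ahcy* value on all exons. With longest transcripts *Cth* rose to 90.03 CPM per kilobase, near *Sardh* at 96.0 but still below it. *Bhmt2* was the lowest in each library, and *Bhmt* alone gave 23.3 to 32.2% of the counts on the 9 enzymes in controls and 33.8 to 36.2% in KO.

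**Figure D3:**
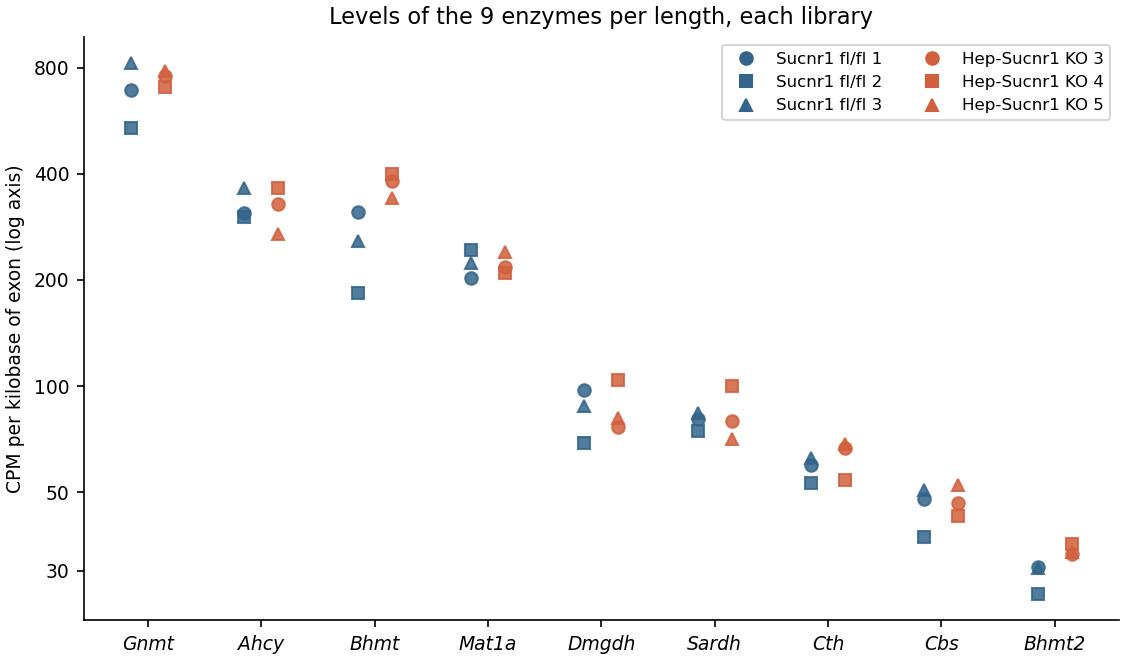
Level of the 9 enzymes in CPM per kilobase of exon (log axis), ordered by the *Sucnr1* fl/fl mean, with 1 point for each library. *Gnmt* is highest and *Bhmt2* lowest in all 6 libraries, and *Bhmt* is the gene whose genotypes stand furthest apart.

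Ratios of transcripts within a library need no scaling between libraries and were compared for 8 pairs of related enzymes. Levels per kilobase of exon were used. *Cbs* and *Bhmt* encode enzymes of 2 of the fates of homocysteine. The log2 ratio of *Cbs* to *Bhmt* was −2.70, −2.30 and −2.34 in controls 1, 2 and 3. In KO 3, 4 and 5 it was −3.03, −3.22 and −2.70. The KO libraries were all lower, but control 1 and KO 5 nearly touched. The difference of the means was −0.54 (two-sided exact permutation p = 0.1, adjusted p = 0.4 over the 8 ratios). The ratio of *Dmgdh* to *Bhmt*, neighbouring steps in the use of betaine, was −1.55 ± 0.13 in controls and −2.11 ± 0.19 in KO (SD, n = 3 each), a difference of −0.56 with no overlap (exact permutation p = 0.1, adjusted p = 0.4). For *Bhmt2* to *Bhmt* the difference was −0.36, or −0.24 without control 2, with groups that overlapped slightly (exact permutation p = 0.2, adjusted p = 0.533). These 3 ratios have *Bhmt* in common and are not separate pieces of evidence.
The other 5 ratios overlapped, with differences between −0.09 and 0.15 and exact permutation p values from 0.5 to 0.9. *Cth* to *Cbs*, the steps of transsulfuration, differed by 0.03. *Gnmt* to *Mat1a* was between 1.71 and 1.80 in the 3 KO libraries and between 1.149 and 1.88 in the controls. *Mat1a* to *Mat2a*, the liver form of the synthase against the form of other tissues and of growing cells, was 3.32 ± 0.11 in controls and 3.35 ± 0.09 in KO (SD, n = 3 each).

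**Figure D4:**
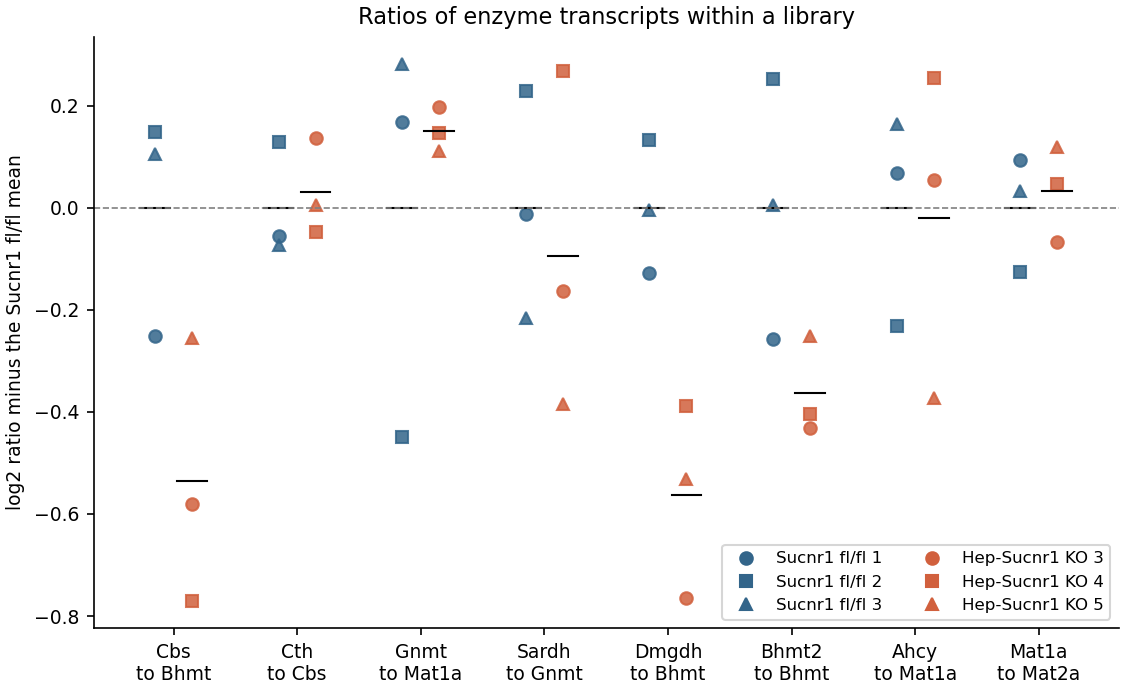
Log2 ratio of 2 enzyme transcripts in each library, after subtraction of the *Sucnr1* fl/fl mean of that ratio (dashed line), with group means as bars. Ratios over *Bhmt* are shifted down in KO by 0.54, 0.56 and 0.36, while the other 5 means differ by at most 0.15.

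The surrounding pathways were described with lists of genes. Among 7 further genes of the methionine cycle, 0 passed the adjusted threshold, 4 were above 0 and 3 below, and the median log2 fold change was 0.09. *Mtr*, the folate-dependent enzyme that competes with BHMT for homocysteine, was at only 2.42 ± 0.80 CPM in controls against 2.68 ± 0.46 CPM in KO samples (SD, n = 3 each). Its reactivating enzyme *Mtrr* had the lowest log2 fold change of the list, −0.25 (standard error 0.12), and *Adk*, which removes adenosine, the highest, 0.18 (standard error 0.13). *Mat2a* was at 101 ± 17.3 and 97.9 ± 5.79 CPM, and *Mat2b*, which encodes its regulatory subunit, at 19.6 ± 1.20 and 17.0 ± 2.05 CPM (SD, n = 3 each).

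Of 7 genes of choline and betaine supply 0 passed the adjusted threshold and 5 were above 0, with a median of 0.03. *Chdh*, whose mitochondrial enzyme makes betaine aldehyde from choline, had the lowest value, −0.28 (standard error 0.17), and was at 179.5 CPM in control 1 and between 78.5 and 112 CPM in the other 5 libraries. Its log2 fold change was −0.09 without that library or without KO 3.

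Among 11 genes of sarcosine, glycine and serine metabolism 7 were above 0, the median was 0.05, and 0 passed the adjusted threshold. *Shmt1*, which moves the carbon of serine onto folate in the cytosol, was at 50.1, 48.2 and 52.6 CPM in the controls and at 59.1, 63.5 and 58.4 CPM in KO. The groups did not overlap, as for *Gcsh* of the glycine cleavage system. All KO libraries were thus higher for 2 of the 11 genes, against 6.54% of all genes tested. The log2 fold change of *Shmt1* was 0.26 (standard error 0.10, unadjusted p = 0.0363, adjusted p = 0.998 by edgeR). *Phgdh*, the entry to serine synthesis, had the lowest value, −0.52 (standard error 0.60), and was highest in control 2 at 4.57 CPM against 0.728 to 1.67 CPM elsewhere. Without that library its log2 fold change was 0.28. The same control library had the lowest *Bhmt*, *Bhmt2*, *Gnmt*, *Cbs*, *Cth* and *Dmgdh* and the highest *Mat1a* of the 6.

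Of 15 folate cycle genes 10 were above 0, with a median of 0.13 and 0 past the adjusted threshold. All KO libraries were higher for 3 of the 15, *Mthfd1*, *Tyms* and *Fpgs*, against 6.54% of all genes tested. Their log2 fold changes were 0.16, 0.29 and 0.13, the second of which was the highest of the list. *Mthfd2l* was lowest, at −0.32 (standard error 0.34), and at 0.11 without control 1. Of 13 genes that lead cysteine to taurine, glutathione and sulfide 9 were above 0, with a median of 0.06 and 0 past the threshold. *Ggct*, of the glutathione cycle, was highest at 0.285 and *Gclc*, a subunit of the enzyme that limits glutathione synthesis, lowest at −0.21 (standard error 0.22). All KO libraries were higher for 1 of the 13 genes, *Ggct*, against 6.54% of all genes tested.

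Of 8 methyltransferases of small molecules 7 were above 0, with a median of 0.16 and 0 past the threshold. *Nnmt*, which methylates nicotinamide, was at 52.8 ± 9.91 CPM in controls against 70.3 ± 9.98 CPM in KO samples (SD, n = 3 each). Its log2 fold change of 0.415 (standard error 0.18, unadjusted p = 0.0522 and adjusted p = 0.998 by edgeR) was 0.12 with the index series in the model, and its groups overlapped. *Inmt* had the lowest value, −0.14. Of 9 genes of methionine salvage and polyamine synthesis 2 were above 0, with a median of −0.05 and 0 past the threshold, *Apip* highest at 0.17 and *Srm* lowest at −0.22. In the plot of pathway lists the medians lie between −0.05 and 0.16.

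**Figure D5:**
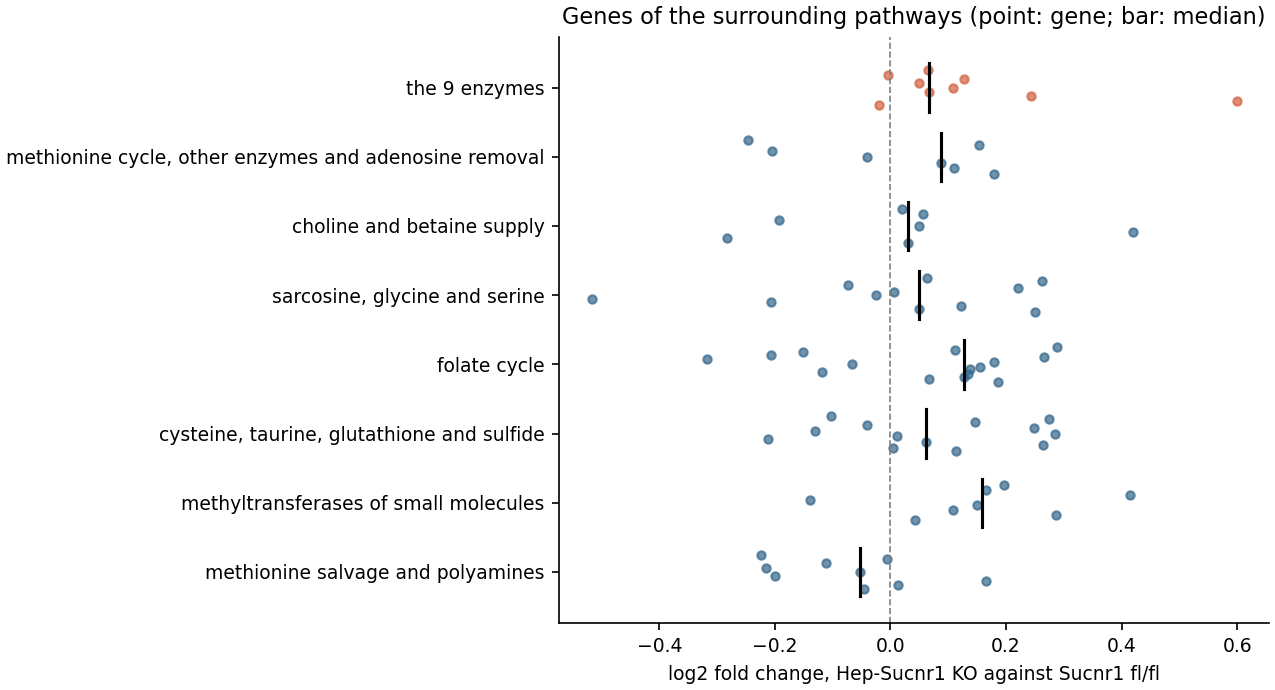
Log2 fold change between KO and control samples (above 0 higher in KO) for each tested gene of the 9 enzymes (orange) and of 7 pathway lists (blue), with the median of each list as a bar. *Bhmt*, at 0.60, lies furthest from 0 of all points, and list medians run from −0.05 to 0.16.

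Genes that mark position in the liver lobule also varied between libraries. The sum of 10 pericentral genes was 2241, 3338 and 2450 CPM in controls 1, 2 and 3 and 2440, 5676 and 1526 CPM in KO 3, 4 and 5. Of these 10 genes 9 had log2 fold changes above 0, with a median of 0.225. KO 4 had the highest sum and KO 5 the lowest. *Cyp2e1*, the largest part of the sum in each library, was at 3430 CPM in KO 4 and 684 CPM in KO 5. The sum of 10 periportal genes was 6419, 4378 and 6471 CPM in the controls and 5396, 4260 and 6880 CPM in KO, and 3 of them had log2 fold changes above 0. Of 11 genes that rise as hepatocytes lose their identity in culture, 3 had log2 fold changes above 0, and their sums overlapped, from 9254 to 11510 CPM in controls and from 7263 to 10990 CPM in KO. Of 8 cholangiocyte genes 7 were tested, 4 with log2 fold changes above 0, and their sums ran from 351 to 513 CPM in controls and from 427 to 651 CPM in KO. Most of these sums came from *Spp1* (means of 335.4 CPM in controls and 398.6 in KO) and *Sox9* (103.7 and 107.8). *Sox9* is also on the list of genes that rise in culture. The others were low, with *Epcam* highest at means of 1.63 CPM in controls and 1.72 CPM in KO. The part of these lists in the *Bhmt* values was not tested.

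The median profile of the 9 enzymes over the 6 libraries, as deviations of log2 CPM from each gene's mean, was −0.02, −0.29 and 0.05 in controls 1, 2 and 3 and 0.03, 0.18 and 0.11 in KO 3, 4 and 5. The genes with the most similar profiles among 7053 candidates were *Cox5b*, *Lmf1*, *Hmgn5*, *Erp29* and *Ddt*, at root mean square distances of 0.0216 to 0.0353 over the 6 libraries.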

How the data were processed

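RNA was sequenced as stranded paired-end mRNA libraries from overnight cultures of liver cells, 3 samples of each genotype. The authors trimmed reads with Trim Galore 0.6.7, aligned them to GRCm38 with STAR 2.7.10a, counted read pairs per Ensembl gene with featureCounts, using strand, and deposited raw counts in 1 table. Versions are those of the submitters' processing notes.

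Coordinates, symbols (25130 of 25184 identifiers) and exon lengths came from GENCODE M21, also GRCm38. Genes with a mean DESeq2-normalized count above 5 were kept. The paper describes this cutoff for its pericentral, periportal and Wnt gene sets, and here it was used on the whole table. Genotype was tested on counts with edgeR 4.0.16 (R 4.3.3) by quasi-likelihood with TMM factors, extraction day as covariate and Benjamini-Hochberg adjustment over 15105 genes. Standard errors are the log2 fold change over the root of F. The study itself used DESeq2, run here (1.42.0) as an alternative. CPM were computed with TMM factors, and log2 CPM of profiles used a prior count of 2. Copies were sought with blastn 2.17.0 (at least 90% identity over 1000 bases). The fit was checked on simulated counts. Tables were made with Python 3.11.15.

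The 9 members, the lists and the tests were chosen with earlier results of these data known. Named genes were the members, *Mat2a*, *Mat2b*, *Mtr*, *Sucnr1*, the extremes of each pathway list with a mean of at least 1 CPM, and the 5 genes nearest to the median profile of the members among those with a mean of at least 10 CPM. A gene that this rule names is not reported here. Others were chosen after their values were seen: gene copies, *Gcsh*, *Mthfd1*, *Fpgs*, *Pecam1*, *Reln*, *Cyp2e1*, *Spp1*, *Sox9* and *Epcam*, and the genes nearest to *Bhmt*. Alternatives were DESeq2, other scalings and filters, no covariate, an index term, a robust fit, day 2 alone and each library left out.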

Additional observations from a re-analysis of the deposited data

How the results depend on the processing

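With 3 samples a genotype, an adjusted p near 1 in edgeR says little about stability, and the number of samples limits the precision. *Bhmt* and *Bhmt2* stayed above 0 in all 16 alternatives, from 0.43 to 0.75 and from 0.15 to 0.31, with adjusted p values from 0.702 and 0.928 to 0.9999. No paired analysis was possible because the labels tie no control sample to a KO sample. The shared replicate number 3 falls on different extraction days. The count of enzymes past the threshold was 0 in all 16. Over all genes it was 0 in edgeR and 7 with DESeq2's Wald test, none of them among the 9 enzymes, and DESeq2 put *Sucnr1* at −2.315 with an adjusted p of 0.0328. The causes of these changes were not tested.

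With the index series added, log2 fold changes were 0.039 for *Mat1a*, −0.193 for *Gnmt*, −0.140 for *Cbs*, −0.037 for *Cth*, −0.023 for *Dmgdh*, −0.001 for *Sardh*, 0.044 for *Mat2a*, 0.212 for *Phgdh*, 0.022 for *Gclc* and 0.218 for *Srm*, and 3 of the 9 enzymes were above 0. With the sign kept, *Ahcy* moved to −0.199, *Inmt* to −0.448, *Mtr* to 0.592 and *Apip* to 0.323. All values with the index series rest on control 3 as the only control in the series of the KO libraries. In the day 2 libraries alone, *Mthfd2l* was at 0.099 and the difference in the *Cth* to *Cbs* log2 ratio at −0.049.

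With each library left out in turn, the sign changed for 6 enzymes, with ranges of −0.065 to 0.065 for *Mat1a*, −0.029 to 0.318 for *Gnmt*, −0.135 to 0.111 for *Ahcy*, −0.064 to 0.186 for *Cbs*, −0.116 to 0.244 for *Dmgdh* and −0.100 to 0.184 for *Sardh*. Other genes whose sign changed ran from −0.203 to 0.086 (*Mat2a*), −0.016 to 0.436 (*Mtr*), −1.206 to 0.278 (*Phgdh*), −0.528 to 0.106 (*Mthfd2l*), −0.454 to 0.036 (*Gclc*), −0.344 to 0.054 (*Inmt*) and −0.394 to 0.073 (*Srm*). Differences in log2 ratio ran from −0.021 to 0.096 for *Cth* to *Cbs*, −0.073 to 0.293 for *Gnmt* to *Mat1a*, −0.274 to 0.051 for *Sardh* to *Gnmt*, −0.159 to 0.154 for *Ahcy* to *Mat1a* and −0.031 to 0.082 for *Mat1a* to *Mat2a*. With the sign kept, ranges were 0.012 to 0.209 for *Cth*, 0.051 to 0.246 for *Apip* and −0.491 to −0.237 for *Bhmt2* to *Bhmt*. The count of enzymes above 0 ran from 5 to 8 and their median from 0.007 to 0.186.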

Other observations

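Genes were also ranked by the distance of their profile over the 6 libraries from that of *Bhmt* alone, a ranking added after the values were seen and given as a description. Apart from the copies *Gm5096* and *Bhmt-ps1*, the nearest among 7053 candidates were *Pmvk* (root mean square distance 0.0626), *Nsdhl* (0.106) and *Rdh11* (0.143). *Pmvk*, which encodes phosphomevalonate kinase, was at 26.2, 14.6 and 22.3 CPM in controls 1, 2 and 3 and at 30.5, 32.3 and 30.7 CPM in KO 3, 4 and 5. Control 2 was lowest and KO 4 highest, as for *Bhmt*, which follows from the ranking. The log2 fold change of *Pmvk* was 0.59 (standard error 0.19, edgeR adjusted p = 0.998). Genes picked for a profile like that of *Bhmt* share its difference by selection, so their values are no separate evidence. *Nsdhl*, a sterol dehydrogenase gene, was at 40.1 ± 12.2 and 56.2 ± 3.00 CPM, and *Rdh11*, a retinol dehydrogenase gene, at 30.8 ± 6.51 and 39.4 ± 1.96 CPM (SD, n = 3 each). Their log2 fold changes were 0.52 and 0.37, both with an edgeR adjusted p of 0.998.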
